A study of Homo sapiens with 4 samples.

Results

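RGS2 and 9 further genes of the family of regulators of G protein signalling (RGS3, RGS4, RGS5, RGS10, RGS12, RGS14, RGS16, RGS19 and RGS20) were read by 18 of the 41000 probes on an Agilent 2-colour array. The probes were taken by the gene name in the array's annotation, and the group was chosen on measured values, because RGS2 lay among the probes with the strongest ratios in both clones. RGS2, RGS10, RGS19 and RGS20 had 1 probe each, RGS12 had 4 and the other 5 genes had 2. All 18 probes matched the same gene symbol in RefSeq. The ratios of the clones to the control are therefore described without a test, while tests are given for the difference between the clones and for single channels, which the choice did not use.

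The cells were HCT116, an established human colon cancer line. Clone #3-1 and clone #4-7 each stably express a shRNA against N-BLR, a long non-coding RNA, and each is a single clone. The control was 1 HCT116 clone carrying the empty vector, and its RNA was hybridised on every array. Each shRNA clone was read on 2 arrays, named biological replicates in the labels and duplicates in the methods, so that p-values measure only the spread between arrays, which may be technical. The labels speak of lentiviral transduction, and the methods speak of transfection. In every array the labels place the shRNA clone in Cy5 (red) and the empty vector control in Cy3 (green). No array has the dyes swapped, and the dyes are not named in the methods.

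RGS proteins bind the active, GTP-bound alpha subunit of a heterotrimeric G protein and speed up the hydrolysis of its GTP, which shortens the signal of G protein-coupled receptors. Members of the R4 subfamily are represented here by RGS2, RGS4, RGS5 and RGS16, which are small proteins, and by the larger RGS3. RGS2 is known for its selectivity for Gq, the subunit that activates phospholipase C beta, and its transcript is induced by hormones and by cAMP.

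All signed values are log2 ratios of Cy5 over Cy3, after background correction, loess within arrays and quantile normalization between arrays. By the labels a negative ratio means a lower level in the shRNA clone. With these labels E-cadherin was lower and vimentin higher in the channel of the clones, which is opposite to the direction the study gives for them. The single channels also went against the labels. The Cy5 channel, labelled as the clones, differed between the arrays of clone #3-1 and those of clone #4-7 for 35 of 41000 probes (0.0854%) at limma's unadjusted p under 0.001. The Cy3 channel, labelled as the one empty vector control, differed for 7734 (18.9%). Over 26882 probes well above background, the median absolute log2 difference between the arrays of the clones was 0.0651 in Cy5 and 0.22 in Cy3. Within the arrays of one clone it was between 0.0442 and 0.0669 in either channel. With the dyes exchanged, every signed value below would take the opposite sign, the difference between the clones included. Directions are therefore given by channel.

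The tissue label and other cell types were checked by lists of markers. Of 9 colon epithelial markers, 7 were, in one channel or both, well above background on every array, among them EPCAM, KRT8, KRT18 and KRT20, while VIL1 and CDH17 were not. Of 7 fibroblast markers 2 were, of 5 endothelial markers 1, of 6 pericyte and smooth muscle markers 6, and of 7 blood cell markers 4. PTPRC, which marks all leukocytes, was not well above background in either channel on any array.

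RGS2 had the largest ratio of the group. Its probe A_23_P114947 lies at chr1:189512708-189512767 (build hg17, as for every probe position here). The log2 ratio was -2.55 and -2.61 on the arrays of clone #3-1, and -1.78 and -1.82 on those of clone #4-7. The mean was -2.58 ± 0.04 (SD, n = 2 arrays) in clone #3-1, or 5.98-fold lower in Cy5, and -1.80 ± 0.03 (SD, n = 2 arrays) in clone #4-7, or 3.48-fold lower in Cy5. The 4 arrays thus had RGS2 on the same side, with no overlap between the clones. Ordered from the lowest ratio, RGS2 had rank 25 of 41000 probes in clone #3-1 and rank 100 in clone #4-7. With the dyes exchanged, RGS2 would be higher in both clones by the same folds.

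The log2 level of RGS2 in Cy3 was 15.05 on both arrays of clone #3-1, and 14.25 and 14.22 on those of clone #4-7. In Cy5 it was 12.47 and 12.41 on the arrays of clone #3-1, and 12.40 and 12.34 on those of clone #4-7. In order from the highest, RGS2 was therefore brightest in Cy3 on the arrays of clone #3-1, then in Cy3 on those of clone #4-7, and then in Cy5, where the arrays of both clones lay together. The Cy3 level was 0.81 higher on the log2 scale on the arrays of clone #3-1 (SE 0.05, limma's adjusted p = 0.00027), with no overlap. The Cy5 level differed by 0.07 (SE 0.06, limma's adjusted p = 0.71). Both channels were well above background on all 4 arrays, and no spot was saturated.

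**Figure D1:**
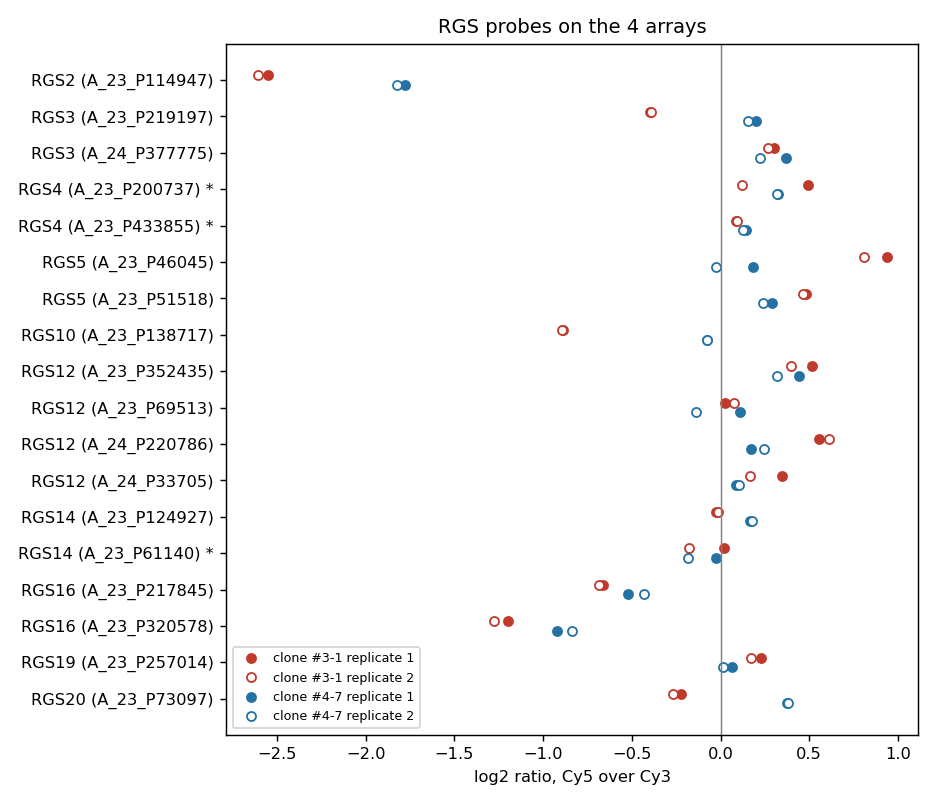
Log2 ratio of Cy5 over Cy3 (horizontal axis) for each of the 18 RGS probes (rows, gene and probe name), with 1 point per array; filled points are replicate 1, open points replicate 2, red is clone #3-1, blue is clone #4-7, and an asterisk marks the 3 probes not well above background in both channels on all arrays. RGS2 lies near -2.6 and -1.8, apart from all other probes, RGS16 follows, and RGS3 (A_23_P219197) and RGS20 have points on both sides of 0.

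RGS16, another small R4 member that acts on Gi and Gq, was the next. Its probe A_23_P320578 had log2 ratios of -1.20 and -1.28 in clone #3-1 and of -0.92 and -0.84 in clone #4-7, which makes it 2.36-fold and 1.84-fold lower in Cy5. The second probe, A_23_P217845, had -0.66 and -0.69 in clone #3-1 and -0.52 and -0.43 in clone #4-7. Both probes lay below 0 on all 4 arrays, and the values of the clones did not overlap in either. The probes lie on chromosome 1, 10.2 Mb from RGS2.

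Because RGS2 and RGS16 were the genes of the group with every probe at -0.43 or lower on every array, the 250 bases before their start sites are shown. The sequences are from RefSeq on GRCh38.p14, written 5′ to 3′ along the strand of the gene, at chr1:192808789-192809038 (plus strand) for RGS2 and chr1:182604390-182604639 (minus strand) for RGS16. Capitals mark CCAAT, the CCAAT box, and CGTCA, the core that a cAMP response element holds, each on either strand.
RGS2: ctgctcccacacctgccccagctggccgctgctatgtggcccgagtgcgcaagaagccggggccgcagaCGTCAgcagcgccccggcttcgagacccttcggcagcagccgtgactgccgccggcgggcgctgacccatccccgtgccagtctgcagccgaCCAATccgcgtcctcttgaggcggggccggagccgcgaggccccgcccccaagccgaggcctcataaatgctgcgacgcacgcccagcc
RGS16: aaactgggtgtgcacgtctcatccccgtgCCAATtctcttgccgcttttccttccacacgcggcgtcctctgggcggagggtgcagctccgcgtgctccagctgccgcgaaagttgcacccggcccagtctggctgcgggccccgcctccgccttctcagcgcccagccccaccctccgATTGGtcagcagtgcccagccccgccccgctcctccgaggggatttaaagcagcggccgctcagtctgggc
The RGS2 window holds CGTCA 181 bases before the start and CCAAT 89 bases before it. The RGS16 window holds CCAAT 221 bases before the start and its complement ATTGG 71 bases before it, and no CGTCA. Among 35116 such windows of all genes, 21.2% hold CGTCA and 32.0% hold CCAAT on either strand. GGGCGG, the GC box, is in both windows and in 42.6% of all. TGACGTCA, the full cAMP response element, which contains CGTCA on both strands, and TATAAA, the TATA box, are in neither window, and in 1.65% and 10.7% of all. The windows are 72.8% G and C for RGS2 and 68.4% for RGS16. Whether any of these letters bears on the ratios was not tested.

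The other R4 members did not share this pattern. RGS3, a larger member made in several isoforms, had 2 probes for different transcript variants that disagreed. A_23_P219197 (chr9:113439262-113439321), annotated to variant 4, had -0.40 and -0.39 in clone #3-1 against 0.20 and 0.15 in clone #4-7. A_24_P377775, annotated to variant 3, had 0.30 and 0.27 in clone #3-1 and 0.37 and 0.22 in clone #4-7. The first probe thus lay on opposite sides of 0 in the clones, and the second lay above 0 on all 4 arrays. The second was much dimmer, with log2 levels between 6.99 and 7.39 over both channels, against 10.77 to 11.40 for the first. Whether the variants or the low level lie behind the disagreement was not tested.

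RGS5, known as a marker of pericytes, was on the side opposite to RGS2. Its probe A_23_P46045 had 0.94 and 0.81 in clone #3-1, and 0.18 and -0.03 in clone #4-7. The probe A_23_P51518 had 0.48 and 0.47 in clone #3-1, and 0.29 and 0.24 in clone #4-7. Both probes were higher in clone #3-1 without overlap, and only the second was above 0 on all arrays. All 6 pericyte and smooth muscle markers were well above background on all arrays. The log2 of their summed level was 11.9 in Cy3 on both arrays of clone #3-1 and 11.6 in Cy3 on both arrays of clone #4-7. In Cy5 it lay between 11.6 and 11.7. Their log2 ratios went both ways, from -0.53 for CSPG4 to 0.79 for CNN1 in clone #3-1. In clone #4-7 they went from -0.36 for CSPG4 to 0.57 for ACTA2. Their part in the RGS5 ratio was not tested.

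RGS4, a small R4 member best known from neurons and heart, was dim. A_23_P200737 was well above background in Cy5 on all 4 arrays and in Cy3 on none. Its log2 ratio was 0.49 and 0.12 in clone #3-1, and 0.32 on both arrays of clone #4-7. No fold is given for it. A_23_P433855 was not well above background in either channel on any array, and no fold is given.

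The R12 subfamily holds RGS10, RGS12 and RGS14, which act on Gi. RGS10 is the smallest of them. Its probe A_23_P138717 (chr10:121249513-121249572) had -0.89 and -0.90 in clone #3-1 and -0.08 on both arrays of clone #4-7. RGS10 was thus 1.86-fold lower in Cy5 in clone #3-1, and 1.06-fold lower in clone #4-7.

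RGS12, a large scaffold protein with further signalling domains, was read by 4 probes. A_24_P220786 had 0.56 and 0.61 in clone #3-1 and 0.17 and 0.24 in clone #4-7. A_23_P352435 had 0.52 and 0.40 in clone #3-1 and 0.44 and 0.32 in clone #4-7, with the values of the clones overlapping. The remaining pair had means of 0.26 and 0.05 in clone #3-1, and of 0.09 and -0.01 in clone #4-7, for A_24_P33705 and A_23_P69513. All 4 probes had a positive mean in clone #3-1.

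RGS14, a scaffold for Gi and small GTPases, stood near 0. A_23_P124927 had -0.03 and -0.01 in clone #3-1 against 0.17 and 0.18 in clone #4-7. A_23_P61140 was well above background in Cy5 on 1 array and in Cy3 on 3, and its log2 ratios lay between -0.18 and 0.02 on the 4 arrays.

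The RZ subfamily is represented by RGS19 and RGS20, which act on Gz and Gi. RGS20 (A_23_P73097, on chromosome 8) had -0.22 and -0.27 in clone #3-1 and 0.37 and 0.38 in clone #4-7, so that the clones lay on opposite sides of 0. RGS19 (A_23_P257014, on chromosome 20) had 0.23 and 0.17 in clone #3-1 and 0.07 and 0.01 in clone #4-7. RGS19 was above 0 on all arrays and closer to 0 in clone #4-7.

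As a count over the group, 10 of the 18 probes lay past limma's unadjusted p under 0.001 in clone #3-1, against 32.7% of all probes. Of these, 4 were higher in Cy5 (16.3% of all probes) and 6 lower (16.4%). In clone #4-7 the count was 7, against 31.1% of all probes, with 4 higher (16.1%) and 3 lower (15%). The choice of the group used these ratios, so the counts are a description only. The median log2 ratio of the 18 probes was 0.07 in clone #3-1 and 0.11 in clone #4-7, beside 0.01 over all probes in both. RGS2 and RGS16 were thus far from the middle of their own family. With an adjusted p (Benjamini-Hochberg) under 0.05 the counts were 15 in clone #3-1 (54.5% of all probes) and 12 in clone #4-7 (52.1%).

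The difference between the clones asks whether the RGS genes depart from the control to the same extent in both. It is the log2 ratio in clone #3-1 minus that in clone #4-7, and passed limma's unadjusted p under 0.001 for 6 of the 18 probes, against 22.6% of all probes. Of these, 2 were positive (11% of all probes) and 4 negative (11.6%). With an adjusted p under 0.05 the count was 11, against 42.4% of all probes. The median difference of the 18 probes was -0.01, beside 0.00 over all probes.

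RGS10 and RGS2 differed most on the negative side. The difference was -0.81 for RGS10 (SE 0.04, limma's adjusted p = 0.00014) and -0.78 for RGS2 (SE 0.04, limma's adjusted p = 0.00021). RGS20 followed with -0.62 (limma's adjusted p = 0.00032), and then RGS3 A_23_P219197 with -0.57 (limma's adjusted p = 0.00041), in the main processing. Each of these 4 probes was lower in clone #3-1 on both arrays than on either array of clone #4-7. RGS20 and this RGS3 probe had opposite signs in the clones, while RGS2 and RGS10 had the same sign and a different size.

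On the positive side were RGS5 A_23_P46045 with 0.80 (SE 0.09, limma's adjusted p = 0.0014) and RGS12 A_24_P220786 with 0.38 (SE 0.05, limma's adjusted p = 0.0027). Neither passed the threshold of 0.001 with Feature Extraction's processed signals, with the authors' table of log10 ratios, or with the background correction at an offset of 0. Their differences there were 1.16, 1.16 and 1.05 for RGS5, and 0.44, 0.44 and 0.42 for RGS12. RGS12 also missed it without any one of the arrays, and RGS5 without clone #3-1 replicate 1. RGS16 A_23_P320578 just missed the threshold with a difference of -0.36 (limma's adjusted p = 0.0046). For the second RGS3 probe the difference was -0.01, with a 95% interval from -0.17 to 0.14. For RGS4 A_23_P200737 it was -0.01, with a wider interval from -0.33 to 0.30.

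**Figure D2:**
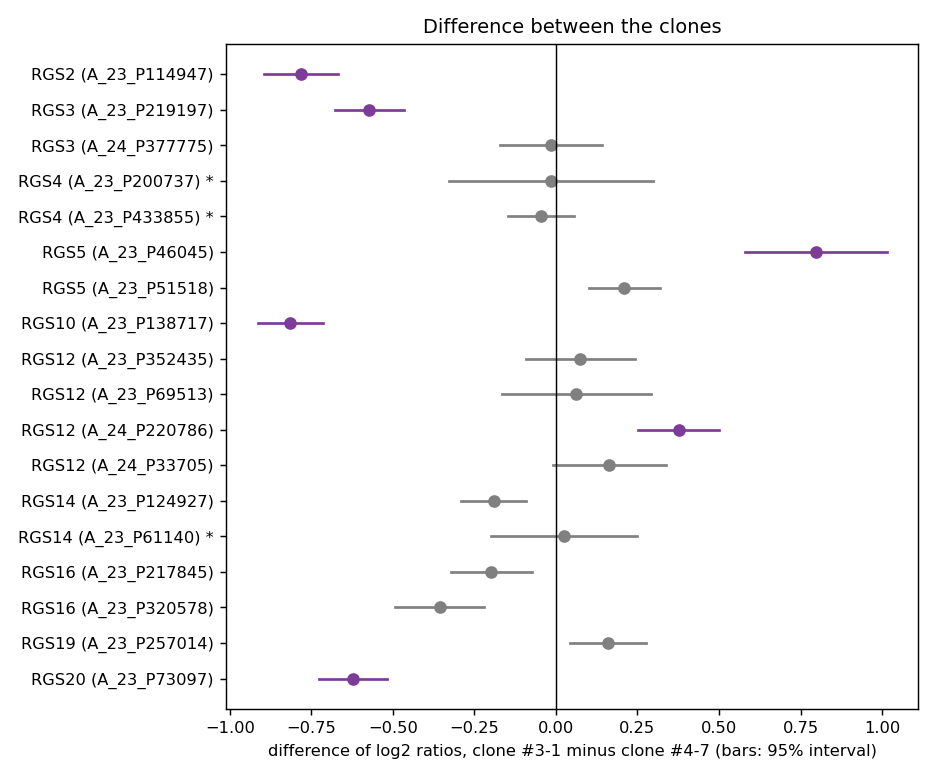
Difference of the log2 ratios of Cy5 over Cy3, clone #3-1 minus clone #4-7 (horizontal axis), for each of the 18 RGS probes (rows); points are the fitted differences from 4 arrays, bars their 95% intervals, purple marks limma's unadjusted p under 0.001, and an asterisk marks the 3 probes not well above background in both channels on all arrays. RGS2, RGS3 (A_23_P219197), RGS10 and RGS20 lie between -0.81 and -0.57, and RGS5 (A_23_P46045) lies at 0.80.

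Read by channel, the difference between the clones lay in Cy3 for the RGS probes. In Cy5, 0 of the 18 probes differed between the arrays of the clones at limma's unadjusted p under 0.001, against 0.0854% of all probes. Their smallest unadjusted p from limma was 0.0546. In Cy3, 6 of 18 differed at the threshold, against the 18.9% of all probes given above. Of these, 5 were higher on the arrays of clone #3-1 (9.68% of all probes) and 1 was lower (9.19%). These single-channel tests were chosen after the values were seen. They concern the arrays as labelled, and which RNA each dye held was not tested.

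The Cy3 levels that were higher on the arrays of clone #3-1 were those of RGS2, RGS10, RGS20, RGS3 A_23_P219197 and RGS16 A_23_P320578, by 0.81, 0.81, 0.62, 0.61 and 0.33 on the log2 scale. For RGS10 the Cy3 level was 16.68 and 16.59 on the arrays of clone #3-1, and 15.79 and 15.85 on those of clone #4-7. Its Cy5 level lay between 15.65 and 15.83 on all 4 arrays. The level of RGS10 on the arrays of clone #4-7 was therefore nearly the same in both channels.

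RGS5 A_23_P46045 was the probe lower in Cy3 on the arrays of clone #3-1, by a log2 difference of -0.71 (limma's adjusted p = 0.0009). Its Cy3 level was 7.65 and 7.70 there, against 8.32 and 8.44 on the arrays of clone #4-7. Its Cy5 level lay between 8.38 and 8.62 on all 4 arrays. As for RGS10, the channels of clone #4-7 lay close together and those of clone #3-1 apart.

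**Figure D3:**
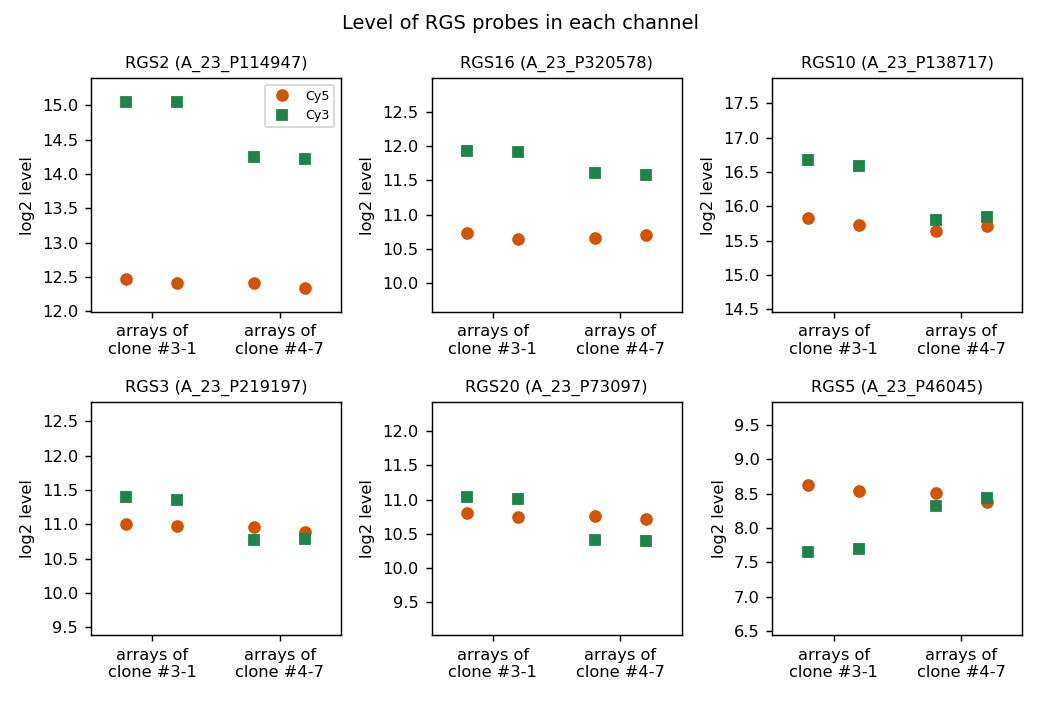
Normalized log2 level (vertical axis, each panel spanning the same number of log2 units) of the 6 RGS probes whose Cy3 level differed between the arrays of the clones, 1 panel per probe; orange circles are Cy5, labelled as the shRNA clone, green squares are Cy3, labelled as the empty vector control, and each point is 1 array. The Cy5 points stay level from the arrays of clone #3-1 to those of clone #4-7, while the Cy3 points shift, for RGS2 from 15.05 to 14.25 and 14.22.

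To set the RGS genes among the partners of their pathway, 137 genes in 5 lists were read at 1 probe a gene, the brightest. In clone #3-1, 20 were higher in Cy5 and 29 lower at limma's unadjusted p under 0.001, together 35.8% against 32.8% of all 30982 genes, of which 16.3% were higher and 16.5% lower. In clone #4-7, 11 were higher and 32 lower, together 31.4% against 31.1% of all genes, of which 15.8% were higher and 15.3% lower. The difference between the clones was positive for 19 and negative for 17, together 26.3% against 22.9% of all genes (11.3% positive and 11.6% negative). The genes named below had an absolute log2 value of at least 1 past the threshold, except where another reason is given.

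The rest of the family had 29 genes of RGS and RGS-domain proteins on the array, 18 of them well above background on every array in one channel or both. In clone #3-1, 5 were higher and 6 lower, and in clone #4-7, 3 were higher and 6 lower, while the difference passed for 2 on the positive and 3 on the negative side. The 3 fell to 1 without clone #3-1 replicate 2, with an offset of 0 and with processed signals. Without either array of clone #3-1 the counts there were 2 higher and 3 lower, and without either array of clone #4-7 those in clone #4-7 were 1 higher and 4 lower. AXIN2, an RGS-domain scaffold that promotes the breakdown of beta-catenin, had a log2 ratio of 1.88 in clone #3-1 and -0.61 in clone #4-7, a difference of 2.49 (limma's adjusted p = 1.9e-05). RGS6 and RGS9, of the R7 subfamily, and RGS17, the close relative of RGS20, are named after their values were seen. RGS6 had -0.73 and -0.72 in clones #3-1 and #4-7, and RGS9 had -0.55 and -0.62. RGS17 had -0.37 in clone #3-1 and 0.22 in clone #4-7, with opposite signs as in RGS20.

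Among 30 G protein subunits, 25 of them well above background, 4 were higher and 7 lower in clone #3-1, and 1 was higher and 5 lower in clone #4-7. The difference passed for 4 on the positive and 1 on the negative side. Leaving out any 1 array left at most 1 positive and at most 2 negative. In clone #3-1 at most 2 were higher without any 1 array and at most 3 were lower without either of its own, and in clone #4-7 there were 3 lower without either of its own. GNAZ, the alpha subunit Gz, had -0.63 in clone #3-1 and -1.05 in clone #4-7. GNAQ and GNA11, the Gq subunits that RGS2 acts on, are named for that role. They had -0.05 and 0.06 in clone #3-1, and -0.08 and -0.01 in clone #4-7, and did not pass the threshold in either clone.

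Of 28 effectors, 21 of them well above background, 2 were higher and 7 lower in clone #3-1, and 0 were higher and 6 lower in clone #4-7. At limma's unadjusted p under 0.05, 8 were higher and 9 lower in clone #4-7, without a share of all genes to set beside these counts. The difference passed for 2 on the positive and 3 on the negative side. These became 1 positive without either array of clone #4-7, and 1 negative without clone #3-1 replicate 1, and 2 negative without any of the others. PRKACB, a catalytic subunit of the cAMP-dependent protein kinase, had 1.03 in clone #3-1 and -0.18 in clone #4-7, a difference of 1.21 (limma's adjusted p = 6.6e-05). PLCB1, PLCB2, PLCB3 and PLCB4, the beta forms of phospholipase C, which Gq activates, are named for their role. PLCB1 had -0.67 and -0.89 in clones #3-1 and #4-7, and passed the threshold in both. In the same order, PLCB4 had -0.57 and 0.16 and passed in clone #3-1 only. PLCB2 had -0.31 and -0.06, PLCB3 had 0.13 and -0.01, and neither passed in either clone.

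The 33 receptors that couple to Gq, 18 of them well above background, had 4 higher and 7 lower in clone #3-1, and 5 higher and 6 lower in clone #4-7. The difference passed for 3 on the positive and 9 on the negative side, and for between 1 and 2, and between 6 and 7, without 1 array. The positive side had 1 without clone #4-7 replicate 1. The number higher in clone #3-1 was 1 and 2 without its replicates 1 and 2, and in clone #4-7 it was 2 without either of its arrays and 3 without either array of clone #3-1. The number lower in clone #4-7 was 4 and 3 without its replicates 1 and 2. The bradykinin receptors BDKRB1 and BDKRB2 had the largest values, -2.77 and -2.32 in clone #3-1, against -0.42 and -0.76 in clone #4-7. PTAFR, the receptor for platelet-activating factor, had -2.07 and -0.32, and P2RY6, a receptor for UDP, had -1.34 and -0.31. These 4 receptors were lower in Cy5 in both clones, and more so in clone #3-1, as was RGS2. F2RL1, a receptor that proteases activate, had -0.88 in clone #3-1 and -1.47 in clone #4-7, the reverse order.

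The 17 genes known to be induced by cAMP, 13 of them well above background, had 8 positive and 1 negative difference between the clones past the threshold. In clone #3-1, 5 were higher and 2 lower, and in clone #4-7, 2 were higher and 9 lower. Without 1 array the difference had between 7 and 8 positive and 1 negative, and clone #4-7 had 1 higher and between 8 and 9 lower, while clone #3-1 had 1 lower without either of its arrays. Their median log2 ratio was 0.09 in clone #3-1 and -0.86 in clone #4-7. FOSB and FOS, subunits of the AP-1 transcription factor, had -5.12 and -4.46 in clone #4-7, and 0.50 and 0.26 in clone #3-1. The nuclear receptors NR4A3, NR4A1 and NR4A2 had -4.23, -3.73 and -2.99 in clone #4-7, and -0.23, 0.11 and 1.45 in clone #3-1.

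DUSP1, a phosphatase of MAP kinases, had -3.37 in clone #4-7 and 0.05 in clone #3-1. PDE4B, which degrades cAMP, had -0.86 in clone #4-7 and 2.37 in clone #3-1. JUNB had -0.29 in clone #3-1 and -1.25 in clone #4-7, the latter from 1 array, since the spot on the other was an outlier. RGS2, also known as a cAMP-induced gene, did not follow this order, with the lower ratio in clone #3-1. CREM, of the same list, also had the lower ratio in clone #3-1, with a difference of -0.47 (limma's adjusted p = 0.00068). PER1 had -0.90 in clone #3-1 and -0.87 in clone #4-7. The difference did not pass for AREG, PCK1, SIK1 and PER1, with 0.32, 0.10, -0.09 and -0.04. It also did not pass for PDE4D, PPARGC1A, SST and CGA, which were not well above background on every array.

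**Figure D4:**
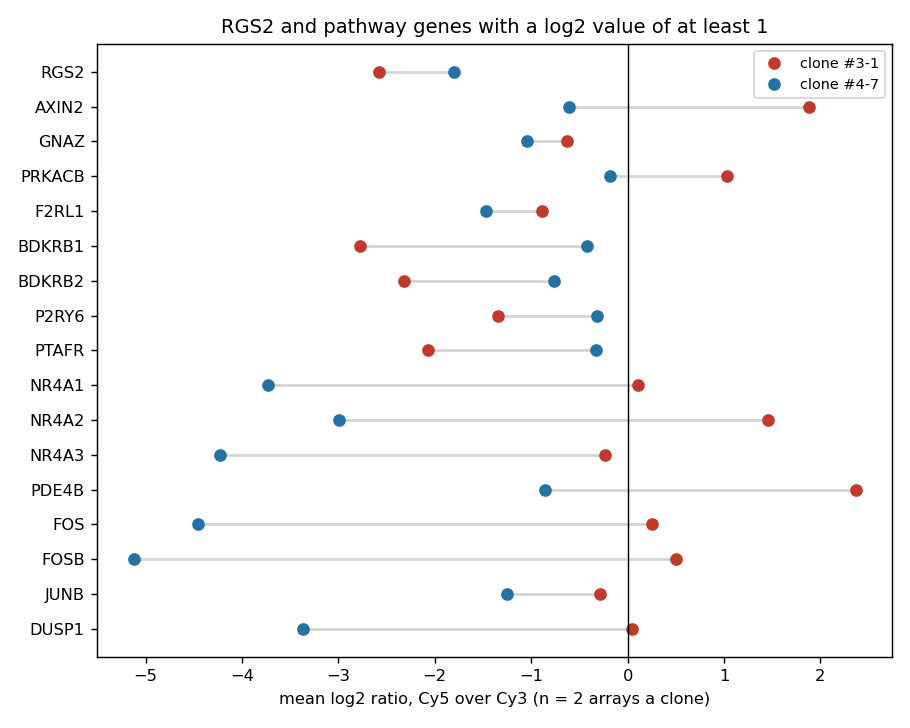
Mean log2 ratio of Cy5 over Cy3 (horizontal axis, n = 2 arrays a clone, 1 for JUNB in clone #4-7) of RGS2 and of the 16 pathway genes with an absolute log2 value of at least 1 past limma's unadjusted p under 0.001 in a comparison (rows); red is clone #3-1, blue is clone #4-7, and a grey line joins the clones. RGS2 and the receptors BDKRB1, BDKRB2, P2RY6 and PTAFR lie lower in clone #3-1, while the cAMP-induced genes from NR4A1 to DUSP1 lie lower in clone #4-7.

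On chromosome 1, RGS2 lies in a cluster of RGS genes. The nearest genes before it, by probe position, were RGS13, RGS1 and RGS18, at 152 kb, 232 kb and 626 kb, and none was well above background in either channel on any array. The nearest after it were UCHL5, a deubiquitinating enzyme, TROVE2, an RNA-binding protein, and GLRX2, a mitochondrial glutaredoxin, at 204 kb, 258 kb and 286 kb. UCHL5 A_23_P148798 had 0.25 and -0.10 in clones #3-1 and #4-7, and GLRX2 had 0.62 and 0.33. TROVE2 A_23_P200767 had -0.48 and -0.50, on the same side as RGS2 but smaller. The neighbours that could be measured thus had log2 ratios between -0.50 and 0.62, against -2.58 and -1.80 for RGS2.

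The genes whose 4 log2 ratios were nearest to those of RGS2 were sought among 21374 named probes by the Euclidean distance over the 4 arrays. They were GALNT3, CD33, HLA-DRB5, CDH1 and PSCD4, at distances of 0.357, 0.424, 0.598, 0.649 and 0.654. GALNT3, an enzyme that starts O-linked glycosylation, was not well above background in Cy5 on any array. CDH1, which encodes E-cadherin, had -2.61 and -2.59 in clone #3-1, and -1.37 and -1.32 in clone #4-7. CD33 and HLA-DRB5 are known from blood cells. The levels of the 7 blood cell markers were summed, and the log2 of the sum is given. In Cy3 it was between 11.3 and 11.4 on the arrays of clone #3-1, and between 10.2 and 10.3 on those of clone #4-7. In Cy5 it was between 10.8 and 11.1. Of these markers CD68 had the largest Cy3 difference, 1.97 higher on the log2 scale on the arrays of clone #3-1. PTPRC, MS4A1 and LYZ were not well above background in either channel on any array. The part of the blood cell markers in these ratios was not tested. The points of each distance share the same arrays, dyes and control RNA.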

How the data were processed

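Total RNA of HCT116 clones was read on 4 Agilent 2-colour arrays, which share 1 slide. The deposited files hold the mean spot intensity and the median local background intensity of each channel, as Agilent Feature Extraction (version 8.5.1.1 in the submitters' processing notes) wrote them, without normalization. They also hold processed intensities, corrected for background and dye. The authors deposited a table of log10 ratios of Cy5 over Cy3. The methods name limma, background correction, log2 values, normalization within arrays, quantile normalization between arrays, averaged spots and a p under 0.001, without saying whether it was adjusted.

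From the deposited intensities, log2 ratios were computed in R 4.3.3 with limma 3.58.1. The background was corrected by normexp with an offset of 50, fitted on all spots. Control spots and the 87 to 125 outlier spots of an array were left out of 43376 probe spots, and loess within arrays, quantiles between arrays and averaging by probe followed. A linear model with a term per clone was fitted over the 4 arrays with empirical Bayes moderation. A ratio set against 0 does not hold the control's own spread, since the control is 1 RNA sample. The unadjusted p was held against 0.001, and the adjusted p is by the Benjamini-Hochberg method over all 41000 probes. Single channels were scaled by loess and Aquantile. Well above background were 71.5% to 72.6% of the spots in Cy5 and 68.5% to 71.8% in Cy3. Precision is limited by the number of arrays.

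The genes and lists were chosen with earlier results of these data known. Named were all RGS probes, pathway genes past the threshold with an absolute log2 value of at least 1, the 3 nearest genes on each side of RGS2, and the 5 named genes nearest to RGS2 in their ratios. Positions are those of hg17 in the files, and no annotation of that build was used here, so that the part of the transcript a probe lies in is not given. The alternatives were other background corrections, the processed intensities, the authors' table, no quantile step, a filter on dim probes, an intensity trend, the replicate block, and leaving out each array. In data simulated for the difference between the clones, 200 of 200 probes shifted by 1 on the log2 scale passed the threshold. Of the others among 40940 probes, 43 did. The differences of the RGS probes were smaller than this shift, and recovery at their size was not simulated.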

Additional observations from a re-analysis of the deposited data

Results flagged for a closer look

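The difference between the clones, clone #3-1 minus clone #4-7 in log2 ratio, passed limma's unadjusted p under 0.001 for 6 RGS probes. It was -0.78 for RGS2, -0.57 for RGS3 A_23_P219197, 0.80 for RGS5 A_23_P46045, -0.81 for RGS10, 0.38 for RGS12 A_24_P220786 and -0.62 for RGS20. In Cy3, the channel labelled as the shared empty vector control, all but the RGS12 probe passed the same threshold between the clones. None passed it in Cy5. The level of the RGS12 probe differed by -0.36 in Cy3 (limma's adjusted p = 0.0081) and by 0.06 in Cy5 (limma's adjusted p = 0.75). Which RNA each dye held was not tested, and no array has the dyes exchanged.

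Among the pathway genes named for an absolute log2 value of at least 1, the difference passed the same threshold for each. GNAZ, P2RY6 and JUNB missed it under some of the other settings. The cAMP-induced genes had 5.62 for FOSB, 4.72 for FOS, 4.45 for NR4A2, 3.99 for NR4A3, 3.84 for NR4A1, 3.42 for DUSP1, 3.23 for PDE4B and 0.96 for JUNB. The receptors had -2.35 for BDKRB1, -1.75 for PTAFR, -1.56 for BDKRB2, -1.03 for P2RY6 and 0.58 for F2RL1. The others were AXIN2 with 2.49, PRKACB with 1.21 and GNAZ with 0.42.

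The dim RGS14 probe A_23_P61140 had 1 array whose Cy3 level lay apart from the other 3, with a gap of 0.945 of the whole range over the 4 arrays. Chance sets apart about 1 in 20 such groups, and the levels ranged only from 6.74 to 6.81 on the log2 scale.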

How the results depend on the processing

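RGS2 kept its direction under all alternatives tried. Its log2 ratio was -2.64 in clone #3-1 and -1.85 in clone #4-7 with Feature Extraction's processed intensities and with the authors' table, and -1.86 in clone #4-7 without quantile normalization. Without 1 array it lay between -2.61 and -2.55, and between -1.82 and -1.78. Leaving out an array leaves its clone with 1, which is assumed to vary like the other clone. Its difference between the clones lay between -0.81 and -0.75 and stayed past the threshold.

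The RGS probes past the threshold in clone #4-7 numbered 4 with an offset of 0, 4 without quantiles, 11 with an intensity trend, 12 at an adjusted p under 0.05, and between 3 (without clone #4-7 replicate 1) and 7 without 1 array, with 4 without clone #4-7 replicate 2. For the difference they numbered 11 at an adjusted p under 0.05. At that adjusted p, 52.1% of all probes passed in clone #4-7 and 42.4% for the difference. The counts over all probes moved with the settings as well, within the ranges given below, so the counts of RGS probes are a description only. With the replicate block, which is no true pairing here (the deviations of same-numbered arrays had r = -0.013, n = 2 pairs), the RGS probes numbered 6 for the difference, 9 in clone #3-1 and 7 in clone #4-7.

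The pathway genes past the threshold in clone #3-1 numbered 29 with an offset of 0, 30 with processed intensities, 75 at an adjusted p under 0.05, and between 28 (without clone #3-1 replicate 1) and 43 without 1 array, with 32 without clone #3-1 replicate 2. In clone #4-7 they numbered 27 with processed intensities, 77 at an adjusted p under 0.05, and between 29 and 38 without 1 array. For the difference they numbered 18, 20, 55 and 61 with an offset of 0, processed intensities, the intensity trend and an adjusted p under 0.05, and between 23 (without clone #4-7 replicate 1) and 26 without 1 array. Over all probes the counts ranged from 7628 to 22359 in clone #3-1, from 6584 to 21347 in clone #4-7 and from 4327 to 17394 for the difference. The cause of these shifts was not tested.

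Only differences that did not pass the threshold changed sign. RGS3 A_24_P377775 had 0.13 with processed intensities and with the authors' table, 0.017 without quantiles, and between -0.088 and 0.060 without 1 array, positive without clone #3-1 replicate 2 or clone #4-7 replicate 1. RGS4 A_23_P200737 had 0.082 with an offset of 0, 0.23 with processed intensities and with the table, 0.050 without quantiles and between -0.20 and 0.17 without 1 array, positive without clone #3-1 replicate 2. RGS4 A_23_P433855 had 0.051, 0.021 and 0.020 with an offset of 0, processed intensities and the table. RGS12 A_23_P69513 had between -0.064 (without clone #4-7 replicate 2) and 0.19 without 1 array. RGS14 A_23_P61140 had -0.039 with an offset of 0, -0.017 without quantiles, and between -0.073 and 0.12 without 1 array, negative without clone #3-1 replicate 1 or clone #4-7 replicate 2. The RGS4 probes and this RGS14 probe were not well above background in both channels on all arrays, which limits what their ratios can show. GNAZ, P2RY6 and JUNB missed the threshold for the difference with an offset of 0, with differences of 0.43, -1.16 and 0.96. So did GNAZ and JUNB with processed intensities (0.42 and 1.0008), and P2RY6 and JUNB with the authors' table (-1.22 and 1.0004). GNAZ also missed it without any one of the arrays, with differences between 0.41 and 0.43.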
